A study of Mus musculus with 8 samples.

Results

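The transcripts described are those of 10 genes used as markers of the colonic epithelium (Pigr, Epcam, Krt8, Krt18, Krt20, Muc2, Car1, Lgals4, Tff3 and Cdh1). They were measured in libraries of sorted cells that the labels call enteric neurons. They were picked by gene name as a gauge of epithelial RNA in the sort, with the values of these libraries already known, and all 10 were found among the 55414 genes of the table. For that reason their levels, fold changes and intervals are given as descriptions, no p-value of any of them is printed, and the counts of calls given below support nothing about them. The libraries came from colons of mice aged 4 weeks, 4 libraries from Emb knockdown mice and 4 from WT mice. Emb encodes embigin, a membrane glycoprotein, and the labels do not state how its knockdown was made, nor the strain or sex of the mice. In both genotypes, dissociated colon cells were stained for CD24 and CD56 and sorted into lysis buffer, about 250 cells a tube, and the RNA was copied and amplified with a Smart-seq kit. The labels do not say that each tube held cells of 1 mouse, so p-values measure only the spread between these libraries, which may be in part technical.

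The lining of the colon is a single sheet of epithelial cells held together by E-cadherin and built on a keratin skeleton. Absorptive colonocytes take up water and ions and carry antibody into the lumen, and goblet cells secrete the mucus gel that keeps bacteria off the surface. Enteric neurons lie deeper in the wall, in ganglia, and are not known to use these genes as a programme. CD24, 1 of the pair of sort antigens, is also carried by crypt epithelial cells.

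Total counts ran from 2024372 to 2712754 in Emb knockdown and from 698930 to 954191 in WT, and ribosomal RNA genes took 31.2% to 45.1% of them in Emb knockdown against 5.28% to 14.4% in WT. Emb had 5, 25, 3 and 5 counts in Emb knockdown replicates 1 to 4 and 4, 6, 22 and 16 in WT replicates 1 to 4 (log2 fold change -1.24 ± 0.82, SE; edgeR quasi-likelihood test, Benjamini-Hochberg adjusted p = 0.529), so no decrease of the targeted gene was called. Of 14 neuronal markers, those highest in mean CPM (counts scaled to library size with TMM factors) were Syt1, a calcium sensor of synaptic vesicles, Elavl3, an RNA-binding protein of neurons, and Map1b, a microtubule protein. Syt1 had 109 to 150 CPM in Emb knockdown and 174 to 333 CPM in WT, Elavl3 had 75.1 to 117 CPM in Emb knockdown and 151 to 270 CPM in WT, and Map1b had 45.9 to 350 CPM in Emb knockdown and 13.8 to 41.2 CPM in WT. Another 7 of the 14, among them Tubb3, Snap25, Prph and Stmn2, each averaged under 10 CPM in both genotypes, and these 4 were chosen after their values were seen.

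Pigr, Lgals4 and Muc2 held the most counts of the 10 genes, so their promoters are shown: the 250 bases before the RefSeq transcription start (GRCm38.p6; 7 of the 10 genes have such a window, and Car1, Tff3 and Cdh1 do not). Capitals mark motifs found by letters on either strand.
Pigr, chr1:130826434-130826683, plus strand: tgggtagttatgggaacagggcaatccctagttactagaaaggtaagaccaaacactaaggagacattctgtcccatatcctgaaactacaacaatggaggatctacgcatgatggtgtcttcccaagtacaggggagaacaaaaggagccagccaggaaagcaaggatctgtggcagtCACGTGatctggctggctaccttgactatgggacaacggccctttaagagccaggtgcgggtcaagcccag
Lgals4, chr7:28833544-28833793, plus strand: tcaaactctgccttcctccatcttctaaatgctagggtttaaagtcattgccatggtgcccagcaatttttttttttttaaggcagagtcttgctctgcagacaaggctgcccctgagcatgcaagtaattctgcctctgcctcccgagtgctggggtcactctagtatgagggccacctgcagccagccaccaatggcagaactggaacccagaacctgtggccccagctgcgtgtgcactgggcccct
Muc2, chr7:141690090-141690339, plus strand: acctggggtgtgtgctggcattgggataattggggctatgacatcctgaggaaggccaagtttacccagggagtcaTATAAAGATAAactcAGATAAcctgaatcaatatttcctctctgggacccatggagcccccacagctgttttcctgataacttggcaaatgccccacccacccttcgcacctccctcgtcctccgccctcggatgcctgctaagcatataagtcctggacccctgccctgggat
The E-box, bound by basic helix-loop-helix factors, was searched as CACGTG. The TATA box, which helps to place the start of transcription, was searched as TATAAA. For the GATA factors of the gut epithelium the letters were AGATAA, and for the nuclear receptor HNF4, which acts in enterocytes, they were CAAAGTC. A motif of interferon regulatory factors was searched as well. The Pigr window holds 1 CACGTG, which starts 71 bases before the transcription start and occurs in 6.02% of all 32851 promoter windows of this length. The Muc2 window holds AGATAA at 159 and 169 bases before the start, a motif found in 9.99% of windows. It also holds TATAAA at 174 bases, found in 12.4% of windows, which overlaps the GATA motif at 169. The Lgals4 window holds no match to the 5 motifs; the HNF4 letters occur in 3.84% of windows and the interferon regulatory factor motif in 2.98%. These matches describe letters, not bound sites.

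Levels of the 10 genes spanned 3 orders of size, and 1 gene supplied nearly all of the counts. To compare genes, counts per kilobase of exon were divided, in each library, by those of 1505 olfactory, vomeronasal and trace amine receptor genes. The receptor genes were pooled, as their summed counts over their summed exon length. Colon cells are not known to use these receptors broadly, so their counts serve as a background. Over the 8 libraries the median level, in multiples of that background, was 1339 for Pigr, 80.1 for Tff3 and 73.2 for Lgals4. It was 8.40 for Cdh1, 7.84 for Muc2, 7.15 for Epcam, 3.85 for Krt8 and 2.85 for Krt18, and 1.10 for Car1 and 0.545 for Krt20. Across the 8 libraries the lowest level of Pigr, 807, lay above the highest of Tff3, 189. The ranges of all other neighbours in this order overlapped across the 8 libraries. Within each library, however, Lgals4 also lay above Cdh1. Car1 and Krt20 lay within the range of the receptor genes: 7.57% and 23.9% of the receptor genes had a median level at or above theirs. For Pigr that share was 0%, for Tff3 and Lgals4 0.0664%, and for Krt18 0.997%. A multiple of 1 is thus a pooled mean and not the typical receptor gene, as most receptor genes had a median level below the 0.545 of Krt20.

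**Figure D1:**
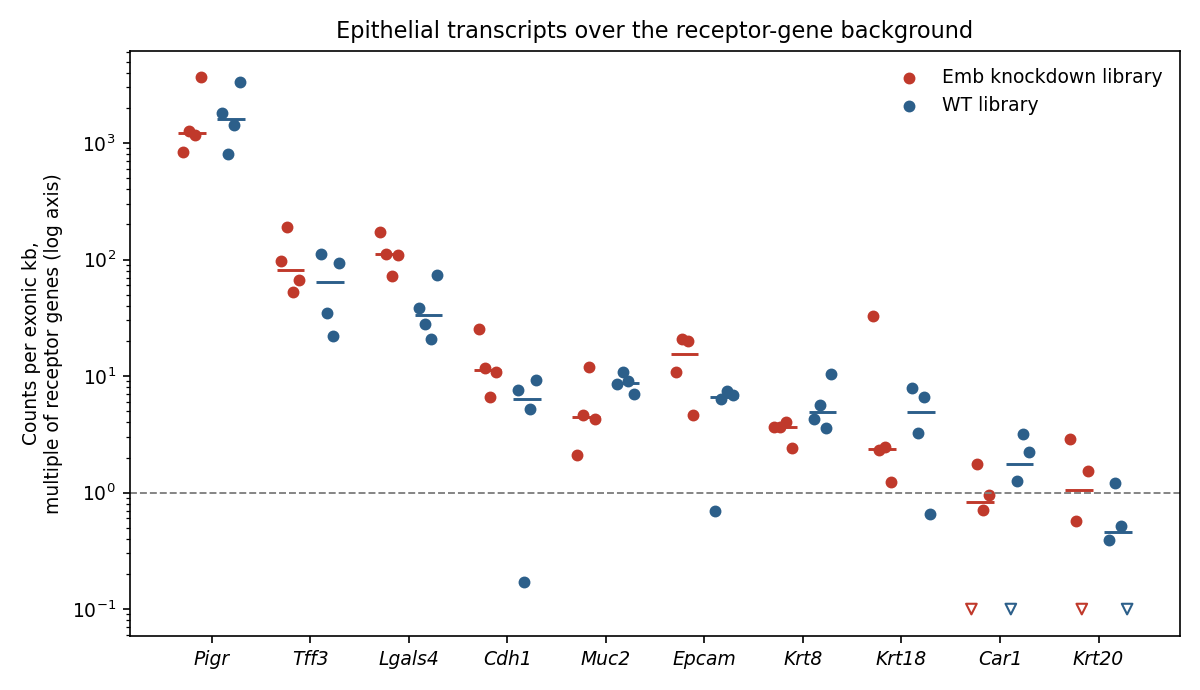
Counts per exonic kilobase of each of the 10 genes in multiples of the receptor-gene background (log axis); each filled point is 1 library, Emb knockdown left of WT, short lines are group medians, open triangles are libraries with 0 counts, and the dashed line is the background. Pigr lies at 807 to 3666 times the background in every library, whereas Car1 and Krt20 lie around it.

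Pigr encodes the polymeric immunoglobulin receptor, which carries dimeric IgA through the epithelial cell to the lumen (ENSMUSG00000026417, GRCm38 chromosome 1, 130826684 to 130852249, plus strand, 13 merged exons, no overlapping gene in GENCODE M21). It had 4296, 9171, 10843 and 24896 counts in Emb knockdown replicates 1 to 4 and 9670, 4152, 11475 and 14272 counts in WT replicates 1 to 4. Scaled with TMM factors, Pigr had 2862, 4862, 5859 and 15598 CPM in Emb knockdown and 12441, 4773, 8729 and 20058 CPM in WT. The groups overlapped, with Emb knockdown replicate 4 and WT replicate 4 highest in their groups. The mean was 7295 ± 5674 CPM in Emb knockdown and 11500.4 ± 6508 CPM in WT (SD, n = 4 each), a log2 fold change of -0.66 ± 0.65 (SE; 95% interval -2.08 to 0.76), and -1.32 without Emb knockdown replicate 4. Among all genes of a library, Pigr ranked 6th to 38th by count in Emb knockdown and 7th to 19th in WT, and it took 0.161% to 1.14% of all counts in Emb knockdown and 0.490% to 2.04% in WT. Of the 31-base words in its transcripts, 1.02% also occur in transcripts of other genes.

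Of the counts of all 10 genes, Pigr made up 83.8%, 91.1%, 92.9% and 97.4% in Emb knockdown replicates 1 to 4 and 96.5%, 94.4%, 96.9% and 97.5% in WT replicates 1 to 4. The lowest, in Emb knockdown replicate 1, has an exact Clopper-Pearson 95% interval of 82.7% to 84.8%, which covers counting error only, as copies made by amplification were not told apart. The summed level of the 10 genes was 7768 ± 5624 CPM in Emb knockdown and 11885 ± 6621 CPM in WT (SD, n = 4 each), a log2 ratio of -0.61. Without Pigr the other 9 summed to 473 ± 60.5 CPM in Emb knockdown and 384 ± 121 CPM in WT, a log2 ratio of 0.30. The sum of all 10 therefore followed Pigr. The log2 ratio of the other 9 was -0.32 with library totals, on the same side of 0 as Pigr, and 0.95 when scaled to the receptor genes. In libraries of sorted cells pooled by the tube, fewer cells of a type and less RNA per cell cannot be told apart.

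**Figure D2:**
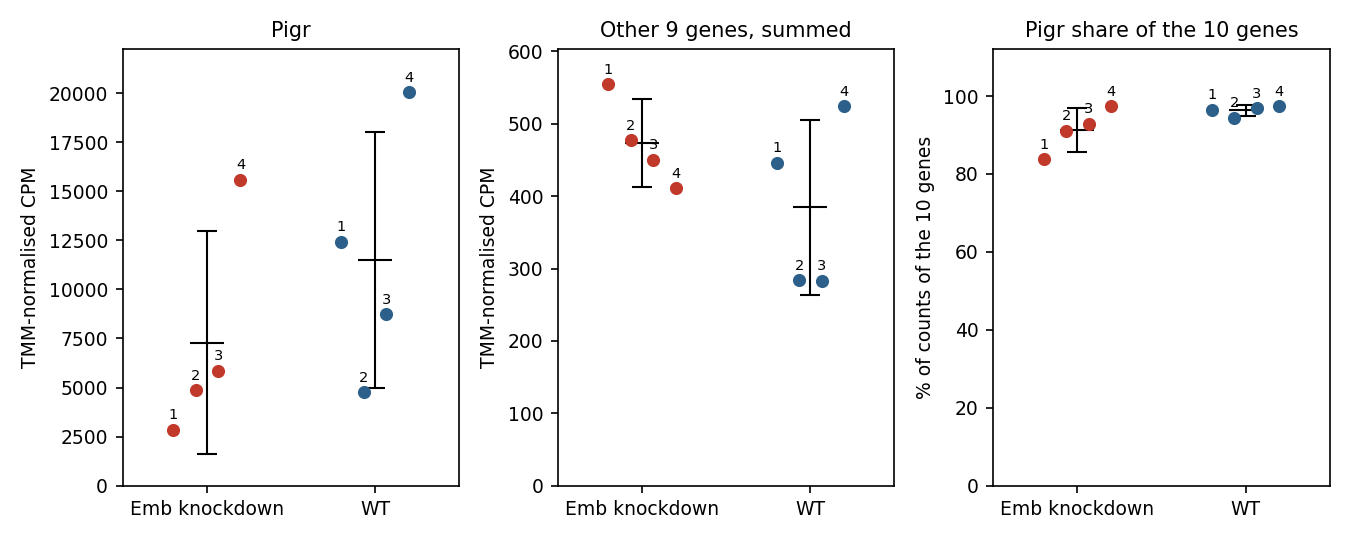
TMM-normalised CPM of Pigr (left) and of the other 9 genes summed (middle), and the share of Pigr in the counts of all 10 (right, %); points are libraries labelled by replicate, and bars are the mean ± SD (n = 4). Pigr and the sum of the others overlap between the genotypes, and Pigr holds 83.8% to 97.5% of the counts in every library.

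Among the other absorptive genes, Lgals4 encodes galectin-4, a lectin that sorts proteins to the apical membrane (chromosome 7, 28833854 to 28841708, plus strand). It had 501, 466, 383 and 430 counts in Emb knockdown and 118, 83, 97 and 183 counts in WT, in order of replicate. This was 334, 247, 207 and 269 CPM in Emb knockdown and 152, 95.4, 73.8 and 257 CPM in WT. The groups overlapped only through WT replicate 4, which lay within the Emb knockdown range. The log2 fold change of Lgals4 was 0.87 ± 0.68 (SE; 95% interval -0.61 to 2.35), and it was 0.19 with library totals in place of TMM factors. The ratio of Pigr to Lgals4 per exonic kilobase was 4.93, 11.3, 16.3 and 33.3 in Emb knockdown replicates 1 to 4 and 47.1, 28.8, 68.0 and 44.9 in WT replicates 1 to 4. These absorptive genes thus did not keep to 1 proportion across libraries, and the ratio ran from 4.93 to 68.0.

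Car1, the cytosolic carbonic anhydrase of surface colonocytes (chromosome 3, 14766216 to 14808368, minus strand), had 0, 4, 2 and 2 counts in Emb knockdown and 0, 2, 8 and 3 counts in WT. It did not reach the filter on low counts and was not tested. A count of 0 in Emb knockdown replicate 1 allows up to 2.00 CPM, and in WT replicate 1 up to 3.86 CPM (3 counts each), so differences in Car1 were not detectable at this depth.

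The goblet genes showed different patterns from each other. Muc2 encodes the gel-forming mucin of the mucus layer (chromosome 7, 141690340 to 141754693, plus strand). It had 19, 60, 194 and 51 counts in Emb knockdown and 81, 98, 129 and 54 counts in WT. The level was 12.7, 31.8, 105 and 32.0 CPM in Emb knockdown and 104, 113, 98.1 and 75.9 CPM in WT, so 3 of 4 Emb knockdown libraries lay below every WT library and replicate 3 lay within the WT range. Its log2 fold change was -1.11 ± 0.71 (SE; 95% interval -2.65 to 0.44), and -1.93 without Emb knockdown replicate 3.

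Tff3, the trefoil peptide that goblet cells secrete with mucin (chromosome 17, 31125306 to 31129646, minus strand), had 60, 169, 59 and 56 counts in Emb knockdown and 73, 22, 22 and 49 counts in WT. In CPM it was 40.0, 89.6, 31.9 and 35.1 in Emb knockdown and 93.9, 25.3, 16.7 and 68.9 in WT, with full overlap (log2 fold change -0.05 ± 0.70, SE; 95% interval -1.58 to 1.47). Per exonic kilobase Tff3 stood at 4.40 to 45.7 times Muc2 in Emb knockdown and at 2.47 to 13.1 times Muc2 in WT. Its transcripts share no 31-base word with another gene.

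Of the adhesion genes, Epcam encodes the epithelial cell adhesion molecule (chromosome 17, 87635979 to 87651129, plus strand). It had 30, 82, 100 and 17 counts in Emb knockdown and 2, 18, 33 and 16 counts in WT. The level of Epcam was 19.99, 43.5, 54.0 and 10.7 CPM in Emb knockdown and 2.57, 20.7, 25.1 and 22.5 CPM in WT. Emb knockdown replicates 2 and 3 lay above every WT library and replicates 1 and 4 did not (log2 fold change 0.85 ± 0.75, SE; 95% interval -0.79 to 2.49).

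Cdh1, which encodes E-cadherin, the calcium-dependent glue of epithelial junctions (chromosome 8, 106603351 to 106670246, plus strand), had 146, 98, 69 and 84 counts in Emb knockdown and 46, 1, 48 and 45 counts in WT. This was 97.3, 52.0, 37.3 and 52.6 CPM in Emb knockdown and 59.2, 1.15, 36.5 and 63.2 CPM in WT. WT replicate 2 stood far below the rest, and the remaining libraries overlapped. The log2 fold change of Cdh1 was 0.58 ± 0.85 (SE; 95% interval -1.29 to 2.45), 0.25 without WT replicate 2, 0.27 without Emb knockdown replicate 1 and -0.20 with library totals, where the sign turned.

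The keratins pair as type II and type I chains, so Krt8 and Krt18 form filaments together, and Krt20 joins them in mature surface cells. Krt8 (chromosome 15, 101996698 to 102004482, minus strand) had 9, 13, 18 and 8 counts in Emb knockdown and 11, 14, 14 and 22 counts in WT. Scaled to depth, this was 6.00, 6.89, 9.73 and 5.01 CPM in Emb knockdown and 14.2, 16.1, 10.7 and 30.9 CPM in WT. Every Emb knockdown library lay below every WT library (log2 fold change -1.35 ± 0.62, SE; 95% interval -2.70 to -0.01). Against the receptor-gene background the groups overlapped, at 2.42 to 4.03 times in Emb knockdown and 3.56 to 10.5 times in WT. Of the 31-base words of Krt8 transcripts, 36.0% also occur in other genes, most of them in the pseudogene Krt8-ps, and its exons overlap those of Gm36026 on the other strand, so its count is uncertain.

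Krt18 (chromosome 15, 102028180 to 102032027, plus strand) had 60, 6, 8 and 3 counts in Emb knockdown and 15, 6, 19 and 1 counts in WT. Emb knockdown replicate 1 held 40.0 CPM, the other Emb knockdown libraries 1.88 to 4.32 CPM, and the WT libraries 1.41 to 19.3 CPM. Krt18 had a log2 fold change of 0.21 ± 1.03 (SE; 95% interval -2.06 to 2.47), and without Emb knockdown replicate 1 Krt18 did not reach the filter. Of the 31-base words of Krt18 transcripts, 11.4% also occur in other genes, so its count is uncertain too. Krt20 (chromosome 11, 99428403 to 99438150, minus strand) had 7, 2, 0 and 5 counts in Emb knockdown and 1, 3, 2 and 0 counts in WT and was not tested.

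Of the 10 genes, 8 passed the filter on low counts. EdgeR called 0 of these 8 past an adjusted p of 0.05, where it called 0% of all 11353 genes tested. The DESeq2 Wald test called 0 of the 8 and 6.36% of all genes, and limma voom called 0 of the 8 and 0% of all genes. An unadjusted edgeR p under 0.05 was reached by 1 of the 8, where 13.3% of all tested genes reached it. Krt8 was the 1 gene of the 8 whose groups did not overlap, and this held for 8.28% of all tested genes. Since the genes were chosen with these values known, nothing is read from those counts. The log2 fold change was above 0 in 4 of the 8 (Lgals4, Epcam, Cdh1 and Krt18) and below 0 in 4 (Krt8, Muc2, Pigr and Tff3), against 51.6% above 0 among all genes. With library totals Cdh1 and Krt18 also lay below 0, and scaled to the receptor genes Krt18 and Tff3 lay above it.

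**Figure D3:**
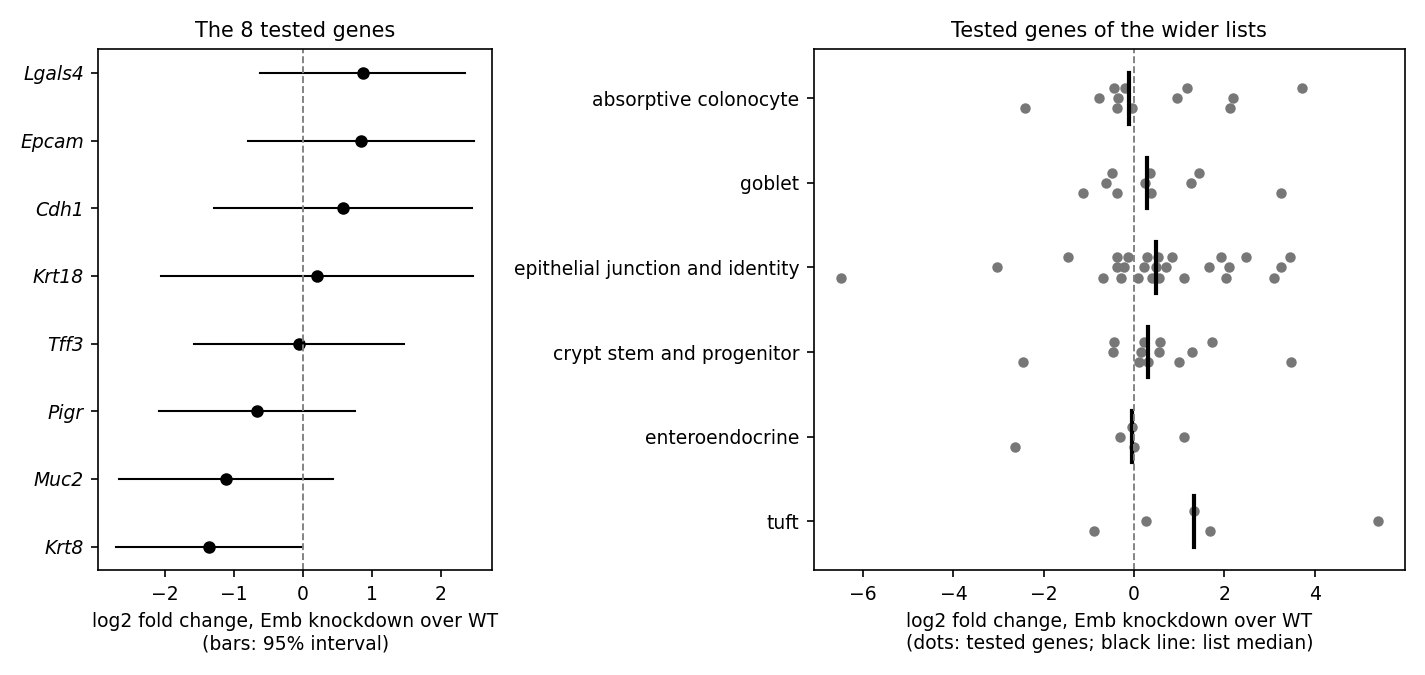
Log2 fold changes, Emb knockdown over WT, of the 8 tested genes with 95% intervals (left) and of the tested genes of 6 wider epithelial lists (right; dots are genes, black lines are list medians). The 8 estimates run from -1.35 for Krt8 to 0.87 for Lgals4, and the list medians lie between -0.12 and 1.32.

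A wider set of 127 other epithelial genes in 6 lists, none of them among the 10, was examined for comparison. By edgeR 0 of the 72 tested passed an adjusted p of 0.05 (0% of all genes), 0 passed by limma voom, and the DESeq2 Wald test, which called 6.36% of all genes, called 5: Ceacam1, Rab25 and Spint2 higher and Chga and Elf3 lower in Emb knockdown. An unadjusted edgeR p under 0.05 was reached by 17, which were 13 higher and 4 lower in Emb knockdown, against 13.3% of all genes. The groups did not overlap in 7, of which 6 were higher (4.03% of all genes were higher without overlap) and 1 was lower (4.25%). In all, 45 of the 72 had a log2 fold change above 0, where 51.6% of all tested genes did. With library totals in place of TMM factors 27 of the 72 did, and scaled to the receptor genes 61 did. The scaling moved the median of all genes to -0.67 with library totals and to 0.64 when scaled to receptor genes, against 0.04 with TMM factors. With library totals the goblet, junction and crypt list medians turned to -0.45, -0.27 and -0.27, and scaled to receptor genes the absorptive and enteroendocrine medians turned to 0.57 and 0.56. These counts cover the genes that passed the filter, not all 127.

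Absorptive colonocyte genes (25, of which 12 were tested) had 5 members higher and 7 lower in Emb knockdown, with a median log2 fold change of -0.12 against 0.04 for all genes. Emp1, named for an epithelial membrane protein, was the most abundant of the list at 1014 ± 97.2 CPM in Emb knockdown and 1166 ± 437 CPM in WT (log2 fold change -0.20 ± 0.59, SE; edgeR adjusted p = 0.920). For Emp1 and the other genes of the wider lists, which cells of the sort supplied the counts was not tested. Lypd8, an anchored protein that keeps flagellated bacteria from the colon surface, had 340, 262, 131 and 110 CPM in Emb knockdown and 18.0, 33.3, 6.85 and 136 CPM in WT. The groups of Lypd8 overlapped through WT replicate 4 (log2 fold change 2.12 ± 0.94, SE; edgeR adjusted p = 0.365). Its log2 fold change was 3.53 without that library and 1.82 without WT replicate 3. Car2, another cytosolic carbonic anhydrase, had 39.3 to 73.9 CPM in Emb knockdown and 3.86 to 37.9 CPM in WT (1.17 ± 0.69, adjusted p = 0.480), and the membrane mucin Muc3 had 17.5 to 46.0 CPM in Emb knockdown and 14.2 to 79.1 CPM in WT (-0.44 ± 0.65, adjusted p = 0.814). Chosen after their values were seen, the chloride and bicarbonate exchanger Slc26a3, a defining colonocyte gene, lay at 0.521 to 0.931 times the receptor-gene background in Emb knockdown and 0.390 to 1.07 times in WT. The water channel Aqp8 lay at 0.375 to 2.10 times in Emb knockdown and 0 to 2.87 times in WT. These 2 genes do not stand for the list. Of its 25 genes, 5 to 8 stood at 10 times or more in each Emb knockdown library and 2 to 6 in each WT library. Lypd8, for instance, lay at 81.2 to 315 times in Emb knockdown and 3.49 to 70.6 times in WT.

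Goblet genes (20, of which 10 were tested) had 6 members higher and 4 lower, with a median log2 fold change of 0.29, which was 1.12 without Emb knockdown replicate 2. Agr2, the endoplasmic reticulum protein needed to fold Muc2, had 235, 0.530, 22.2 and 273 CPM in Emb knockdown and 0, 81.6, 51.0 and 63.2 CPM in WT (log2 fold change 1.44 ± 1.44, SE; edgeR adjusted p = 0.699; 0.81 without Emb knockdown replicate 4). Fcgbp, a mucus protein that binds mucin, had 24.6, 31.8, 40.0 and 260 CPM in Emb knockdown and 10.3, 8.05, 12.9 and 5.62 CPM in WT, without overlap (3.25 ± 0.89, adjusted p = 0.294; 1.80 without Emb knockdown replicate 4). Reg4 and Spink4, secreted goblet products, held 410 and 262 CPM in Emb knockdown replicate 1, at most 2.65 and 1.25 CPM in the other Emb knockdown libraries, and at most 43.7 and 6.43 CPM in WT. In the same library, Emb knockdown replicate 1, Jchain, the joining chain of the dimeric IgA that Pigr carries, stood at 475 CPM, against at most 5.83 CPM in the other 7 libraries. That library held the lowest Pigr (2862 CPM) and the lowest Muc2 (12.7 CPM) of all 8. It also held the highest Lgals4 (334 CPM), Cdh1 (97.3 CPM), Krt18 (40.0 CPM) and Krt20 (4.66 CPM), and the highest sum of the 9 genes other than Pigr (554 CPM).

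**Figure D4:**
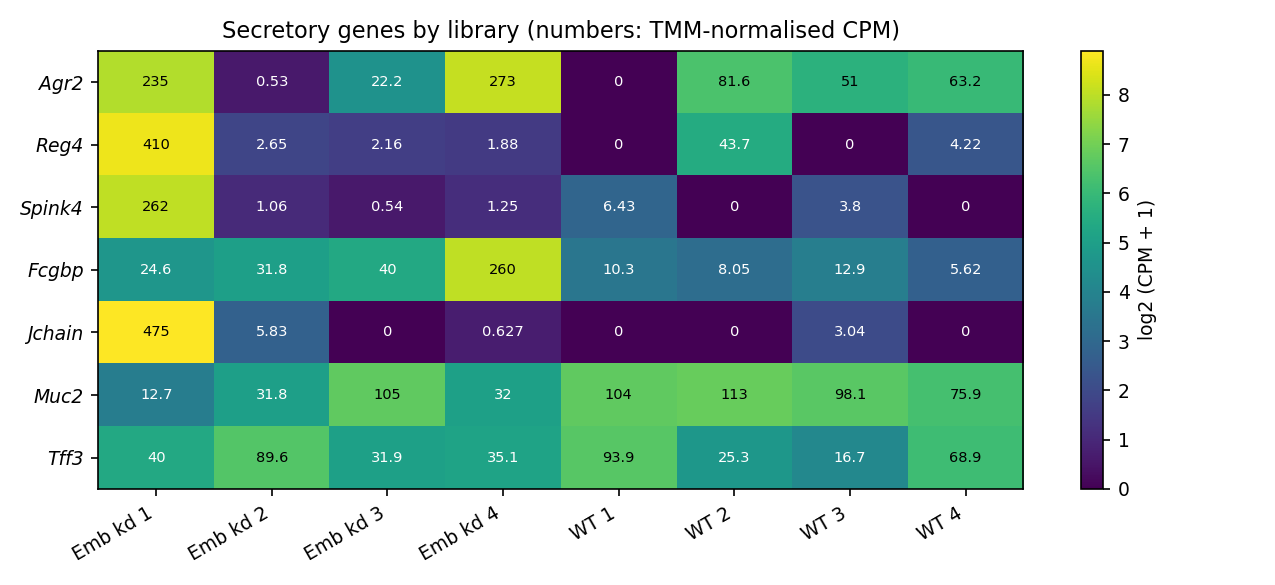
TMM-normalised CPM of secretory genes in each library, coloured by log2 (CPM + 1) with the CPM printed in each cell; columns are the 4 Emb knockdown and 4 WT libraries. Reg4, Spink4 and Jchain stand at 410, 262 and 475 CPM in Emb knockdown replicate 1, where Muc2 is lowest.

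Junction and identity genes (42, of which 27 were tested) had 18 members higher and 9 lower, with a median log2 fold change of 0.49. Spint2, a membrane inhibitor of epithelial serine proteases, had 951, 451, 637 and 341 CPM in Emb knockdown and 171, 160, 267 and 155 CPM in WT, without overlap (log2 fold change 1.66 ± 0.67, SE; edgeR adjusted p = 0.329; adjusted p = 0.0316 by DESeq2). Gpx2, the gastrointestinal glutathione peroxidase, had 1242, 12.7, 273 and 257 CPM in Emb knockdown and 0, 5.75, 155 and 0 CPM in WT (3.45 ± 1.80, adjusted p = 0.426; 7.82 without WT replicate 3 and 2.09 without Emb knockdown replicate 1). Klf5, a transcription factor of crypt cells, had 39.2 to 387 CPM in Emb knockdown and 11.4 to 92.6 CPM in WT (2.09 ± 0.98, adjusted p = 0.380). Grhl2, a regulator of epithelial junction genes, stood at 6242 CPM in WT replicate 1 and at 2.30 to 27.6 CPM in the other 7 libraries; its log2 fold change was -6.49 ± 2.21 with that library (adjusted p = 0.308) and 0.63 without it.

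Crypt stem and progenitor genes (15, of which 13 were tested) had 10 members higher and 3 lower, with a median log2 fold change of 0.31. Cd44, a hyaluronan receptor that leukocytes and glia also carry, had 439 to 1255 CPM in Emb knockdown and 206 to 926 CPM in WT (log2 fold change 0.57 ± 0.73, SE; edgeR adjusted p = 0.776). Ephb2, a receptor that positions crypt cells, had 118 ± 69.8 CPM in Emb knockdown and 110.0 ± 96.0 CPM in WT (SD, n = 4 each; 0.11 ± 0.79, adjusted p = 0.972; 1.01 without WT replicate 1). Sox9 stood at 412 CPM in WT replicate 1 (-2.46 ± 1.30, adjusted p = 0.429; 0.89 without that library). Myb stood at 229 CPM in Emb knockdown replicate 4 (3.49 ± 1.21, adjusted p = 0.311), and Myb did not reach the filter when any 1 Emb knockdown library was left out.

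Enteroendocrine genes (15, of which 5 were tested) had 2 higher and 3 lower, with a median of -0.05, and tuft genes (10, of which 5 were tested) had 4 higher and 1 lower, with a median of 1.32. The tuft median was 0.39 without WT replicate 1, 0.67 without WT replicate 2 and 0.25 with no filter on low counts. Chga, a granule protein that neurons also make, had 38.0, 3.18, 4.32 and 7.52 CPM in Emb knockdown and 129, 155, 14.5 and 32.3 CPM in WT (log2 fold change -2.64 ± 1.01, SE; edgeR adjusted p = 0.320; adjusted p = 0.0485 by DESeq2; -4.01 leaving out Emb knockdown replicate 1, and -2.05 leaving out WT replicate 2). Etv1, Tph1 and Insm1 had log2 fold changes of 1.10 (2.00 without WT replicate 1), -0.05 and -0.31. Among tuft genes Ptgs1, Trpm5 and Dclk1 had log2 fold changes of 1.68, 1.32 (0.31 leaving out Emb knockdown replicate 4) and 0.26 (0.98 leaving out WT replicate 3). No gene of these lists passed the edgeR adjusted p.

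Against the receptor-gene background, the median gene of the 4 lists of colonocyte, goblet, junction and crypt genes lay at 1.72 to 3.66 times in Emb knockdown libraries and 0.601 to 2.39 times in WT libraries. The enteroendocrine list lay at 1.17 to 2.30 times in Emb knockdown and 0.488 to 1.54 times in WT. For the tuft list the range was 2.16 to 3.79 times in Emb knockdown and 0.781 to 2.64 times in WT. The median protein-coding gene lay at 1.57 ± 0.144 times in Emb knockdown and 0.930 ± 0.192 times in WT (SD, n = 4 each). The median of the 10 genes described first was 4.42 to 18.0 times in Emb knockdown and 6.01 to 8.14 times in WT. Lists of epithelia other than the colon's were set beside these. The small intestine list (14 genes) lay at 0.597 to 2.10 times in Emb knockdown and 0.635 to 1.84 times in WT. The list of stratified epithelium (8 genes) lay at 0.611 to 3.52 times in Emb knockdown and 0.989 to 2.00 times in WT. Pigr, Tff3 and Lgals4, the highest of the 10 genes, had median levels of 1339, 80.1 and 73.2 times, above every one of these list medians. A single gene is not a like measure to a list median, and single genes of the lists also stood high. Emp1 had a median level of 180 times in Emb knockdown and 128 times in WT. Spint2 had 108 times in Emb knockdown and 23.2 times in WT.

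**Figure D5:**
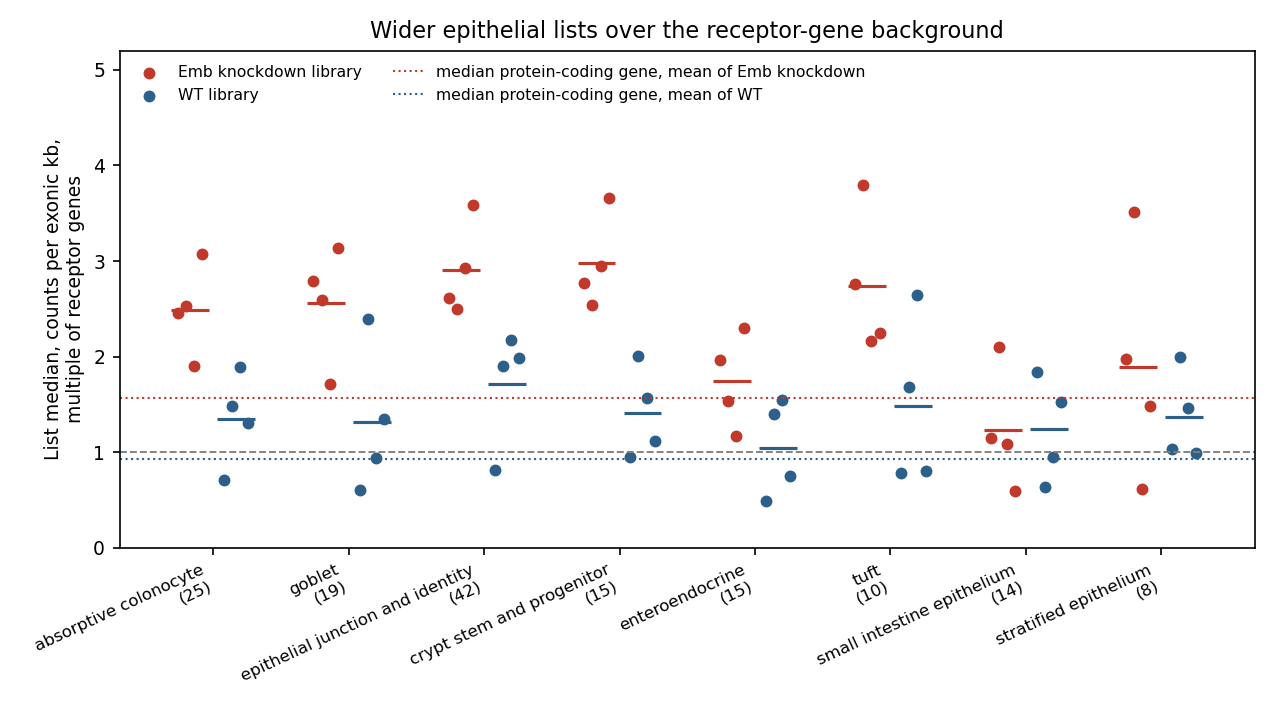
Median level of each list in multiples of the receptor-gene background (counts per exonic kilobase; number of genes with a length in brackets); points are libraries, Emb knockdown left of WT, solid lines are group means, dotted lines the median protein-coding gene and the dashed line the background. The small intestine list lies at 0.597 to 2.10 in Emb knockdown and 0.635 to 1.84 in WT.

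Markers of other cells differed between libraries as well. Glial markers (8 genes) summed to 20534 to 29126 CPM in Emb knockdown and 19026 to 54709 CPM in WT. Macrophage markers (10) summed to 4312 to 6250 CPM in Emb knockdown and 2905 to 9087 CPM in WT, and neuronal markers (14) to 499 to 747 CPM in Emb knockdown and 443 to 753 CPM in WT. These sums overlapped between the genotypes. In every library the glial and the macrophage sums lay above the neuronal sum. By the median gene over the receptor-gene background, glial markers lay at 9.12 to 72.9 times in Emb knockdown and 2.38 to 8.04 times in WT, and macrophage markers at 13.1 to 55.8 times in Emb knockdown and 5.55 to 13.2 times in WT. Neuronal markers lay at 1.69 to 4.24 times in Emb knockdown and 1.18 to 2.00 times in WT on the same scale, on which the median protein-coding gene was also higher in Emb knockdown. Mesothelial markers (8), whose cells also carry Krt8 and Krt18, summed to 68.4 to 449 CPM in Emb knockdown and 44.8 to 98.4 CPM in WT. Lymphocyte and plasma cell markers (11) summed to 73.9 to 729 CPM in Emb knockdown and 68.9 to 147 CPM in WT. Muscle and fibroblast markers (11) summed to 304 to 564 CPM in Emb knockdown and 122 to 307 CPM in WT, and endothelial markers (6) to 163 to 1404 CPM in Emb knockdown and 364 to 2001 CPM in WT. In Emb knockdown replicate 1 the mesothelial and the lymphocyte and plasma cell sums were at their highest, as was Krt18. Krt8 was not, at 6.00 CPM in an Emb knockdown range of 5.01 to 9.73 CPM. Only 1 of the 8 mesothelial genes stood at 10 times the receptor-gene background or more in that library. The median mesothelial gene lay at 2.34 times there, also the highest of the 8 libraries. The muscle and fibroblast, goblet and tuft sums were also highest in that library, at 564, 1246 and 1694 CPM. Cd24a, the gene of the CD24 antigen, had 99.9 CPM there, 4.77 to 12.4 CPM in the other Emb knockdown libraries and 1.29 to 14.9 CPM in WT. Ncam1, the gene of CD56, had 515 to 1865 CPM in Emb knockdown and 140 to 1278 CPM in WT. The part of these cells in the levels of the epithelial genes was not tested.

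The genes whose pattern over the 8 libraries was most like the summed 10 were sought among 9597 protein-coding genes with a mean of at least 10 CPM. Likeness was the mean absolute difference of centred log2 CPM. Pigr itself was nearest at 0.05, since it dominates the sum, followed by Fbxo10 at 0.26, Katnbl1 at 0.33, Xndc1 at 0.34 and Prr12 at 0.34.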

How the data were processed

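The deposited file holds raw read counts for each of 55414 mouse genes in 8 libraries, 4 from Emb knockdown and 4 from WT mice. Per the submitters' processing notes, cutadapt (adapter trimming) and the build mm10 were used; no source used here names the aligner, counter, strand setting or annotation release, so reads of overlapping, antisense and near-identical genes may be split in ways the table does not show. Positions, exon lengths and transcript words of 31 bases came from GENCODE M21 (GRCm38, the assembly that mm10 names), which holds 52133 of the identifiers.

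Genes were filtered with filterByExpr (minimum count 10, minimum total 15), scaled by TMM and tested with edgeR 4.0.16 in R 4.3.3 (robust quasi-likelihood, genotype only), with Benjamini-Hochberg adjustment over 11353 genes and a threshold of 0.05. CPM are counts over the TMM-scaled library size. Each standard error is the fold change over the root of its F statistic. The fit was tested on simulated data. Total counts ran from 698930 to 2712754, and the floor for a count of 0 was set at 3 counts. The 10 genes and all 16 other lists were chosen with earlier results of these data known. All 10 genes are named, with up to 4 genes of each wider epithelial list, and up to 3 of each other list, by highest mean CPM; some genes this rule would name are not reported here. A gene outside this rule is named where a result turns on it, chosen after its values were seen. Alternatives were DESeq2 1.42.0, limma 3.58.1 voom, other scalings, no filter, a replicate block, and leaving out each library.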

Additional observations from a re-analysis of the deposited data

Results flagged for a closer look

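In 66 groups of 4 libraries (33 epithelial genes in each genotype), 13 held a library far from the rest by Dixon's criterion, where chance picks out about 1 in 20 if values are normally distributed. CPM values are skewed, and most of these genes were taken for a high mean CPM, which favours genes lifted by 1 library, so the number is not a comparison with chance. Of the 10 genes themselves, Krt18 stood at 40.0 CPM in Emb knockdown replicate 1 (others 1.88 to 4.32 CPM) and Tff3 at 89.6 CPM in Emb knockdown replicate 2 (others 31.9 to 40.0 CPM). Emb knockdown replicate 1 was the high library for Reg4 (410 CPM), Spink4 (262 CPM) and Chga (38.0 CPM). Emb knockdown replicate 4 was the high library for Fcgbp (260 CPM) and Myb (229 CPM). In WT, replicate 1 was high for Grhl2 (6242 CPM), Ephb2 (253 CPM) and Sox9 (412 CPM), replicate 2 for Reg4 (43.7 CPM), and replicate 3 for Spint2 (267 CPM) and Gpx2 (155 CPM). In each of these 13 groups the library that stood apart was the highest one.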

How the results depend on the processing

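The count of genes called was 0 with TMM factors, 2 with library totals, 910 with no filter on low counts and 683 with DESeq2; it was 0 each time a single library was left out. The replicate block also gave 0. Same-numbered libraries deviated together hardly at all (correlations 0.01 to 0.03, and -0.04 to 0.02 between differently numbered libraries). This check showed no clear pairing by number, but correlations so near 0 cannot exclude a weak one. None of the 10 genes was called under the alternatives in which it was tested, which were 1 for Car1 and Krt20 (no filter), 14 for Krt18 and 16 for the other 7; of the wider lists, 9 genes were called with no filter and 5 with DESeq2. The log2 ratio of the summed 10 genes, -0.61, was 0.30 without Pigr, -0.03 when scaled to receptor genes and -1.24 to -0.21 when single libraries were left out, with the lowest value without Emb knockdown replicate 4 and the highest without WT replicate 4. Pigr ran from -1.32 to -0.08 over all alternatives, Krt8 from -1.97 to -0.78, Muc2 from -1.93 to -0.62, Lgals4 from 0.19 to 1.53 and Epcam from 0.18 to 1.38. Cdh1 (-0.20 to 1.36), Krt18 (-0.79 to 1.03) and Tff3 (-0.71 to 0.63) spanned 0.

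Log2 fold changes of some wider genes turned sign, none of them called. Scaled to receptor genes, Emp1 was 0.45, Muc3 0.18, Tph1 0.66 and Insm1 0.31. With library totals, Cd44 was -0.13, Ephb2 -0.62 and Dclk1 -0.60. With no filter, Emp1 was 0.050 and Tph1 0.20. With the replicate block, Tph1 was 0.053 and Insm1 0.033. Leaving out single libraries, Emp1 ran from -0.32 to 0.092, Grhl2 from -6.87 to 0.63, Ephb2 from -0.24 to 1.01, Sox9 from -2.82 to 0.89, Tph1 from -0.66 to 0.57 and Insm1 from -0.57 to 0.43. The causes were not tested. Low counts limit Car1, Krt20, Krt8 and Krt18 most.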
